A study of Homo sapiens
Mus musculus and Homo sapiens with 2 samples.

Results

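Metallothioneins were followed in A549 cells, an established human lung carcinoma line, during treatment with the synthetic glucocorticoid dexamethasone. The 7 genes described here are MT2A, MT1X, MT1E, MT1F, MT1G, MT1M and MTF1, found by their symbols among 43167 genes in the A549 gene annotation. All 7 had at least 1 count in at least 1 cell, but only MT2A, MT1X, MT1F and MTF1 had enough counts to be tested. The assay was sci-fate, a combinatorial indexing method that counts RNA in single cells and marks the transcripts made while the cells took up 4-thiouridine (S4U), a uridine analogue. Cultures were harvested after 0, 2, 4, 6, 8 or 10 h of dexamethasone, at 100 nM per the treatment protocol and 101 nM per the label of the A549 sample. The 0 h control culture received the ethanol solvent. All 6 cultures received 200 µM S4U for the last 2 h and the iodoacetamide reaction that makes the analogue readable as a base change. No label says that a time point was repeated, so each is taken here as 1 culture. The cells of a culture are not replicates of it.

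A transcript with the S4U signature was counted by the authors as new, made within the labelling window of 2 h. The rest of the whole count is called pre-existing here. Pre-existing RNA at 4 h or later can thus include RNA made after dexamethasone was added but before the label. At every time it also holds any RNA made within the labelling window that was not called new. How much that was is not measured here, and it bears on every split into new and pre-existing RNA. The 6 cultures held 1045 to 1446 cells each, 7404 in all, with 28870594 to 43084614 whole counts and 5865326 to 9718958 new counts per culture. New counts were 20.3% to 22.6% of whole counts. Of 15 markers expected in A549, 13 reached 1 CPM (counts per 1000000 counts of the culture) in the mean over cultures, including keratins and aldo-keto reductases, while NKX2-1 and SFTPC, markers of normal lung epithelium, did not. The 4 leukocyte markers together stood at 0.277 to 0.588 CPM per culture, and the 2 endothelial markers found at 1.04 to 1.40. Higher sums were seen for 6 fibroblast markers, at 7.10 to 13.5 CPM, and 3 HEK293T markers, at 18.25 to 25.2 CPM. Of these, 2 fibroblast markers and 1 HEK293T marker reached 1 CPM. CPM values below are scaled to all counts of the same kind of RNA, so a change is relative to the rest of that kind.

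Metallothioneins are small proteins very rich in cysteine, whose thiols bind zinc and copper and also take up cadmium and other toxic metals. They buffer free zinc, and their genes respond to metals through MTF1, a zinc finger transcription factor that senses zinc and binds metal response elements. Glucocorticoids are a long known inducer of MT2A, the main isoform in many human tissues. MT1X, MT1E, MT1F, MT1G and MT1M are further isoforms of the same fold, encoded beside MT2A.

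The coding sequences of the 3 metallothioneins with enough counts to test are shown because they carry the family's defining feature and show how alike its members are. They are from GENCODE v29 (GRCh38), 5′ to 3′, with the codons for cysteine in capitals.
MT2A: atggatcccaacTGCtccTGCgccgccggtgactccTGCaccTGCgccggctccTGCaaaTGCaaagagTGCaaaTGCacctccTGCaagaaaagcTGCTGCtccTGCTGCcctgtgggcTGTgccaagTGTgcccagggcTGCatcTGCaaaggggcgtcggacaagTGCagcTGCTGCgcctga
MT1X: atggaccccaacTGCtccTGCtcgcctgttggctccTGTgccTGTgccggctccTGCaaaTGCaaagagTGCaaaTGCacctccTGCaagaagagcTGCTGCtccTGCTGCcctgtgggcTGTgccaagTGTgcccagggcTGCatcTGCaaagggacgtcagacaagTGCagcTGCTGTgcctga
MT1F: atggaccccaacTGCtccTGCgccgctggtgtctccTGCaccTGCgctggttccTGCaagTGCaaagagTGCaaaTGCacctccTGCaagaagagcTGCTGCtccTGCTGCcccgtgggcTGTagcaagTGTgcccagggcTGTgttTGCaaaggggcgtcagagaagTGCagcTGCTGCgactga
Each is 186 bases long and encodes 61 residues, 20 of them cysteine. MT2A differed from MT1X at 14 coding positions (92.5% identity) and from MT1F at 16 (91.4%). The 3 genes lie on the plus strand of chromosome 16 and have 3 exons each in the transcript used, as do MT1E and MT1M, whereas MT1G lies on the minus strand there. MTF1 is on chromosome 1, on the minus strand, with 11 exons. The protocol primed reverse transcription at the poly(A) tail, and no word of 50 bases was shared between any pair of the metallothionein transcripts in their last 200 bases. The longest run shared anywhere by a pair was 96 bases, between MT1X and MT1G, and the sources used here do not say how reads with several matches were treated. Counts of the sparse isoforms are uncertain for that reason. The new call needs uridines to read: the transcripts of MT2A, MT1X and MT1F hold 148, 132 and 142 uridines, against 645 for the median gene and 2185 in the long transcript of MTF1. Uridines made up 18.8% of the bases of MT2A, 29.3% of MT1X and 20.6% of MT1F, against 24.4% for the median gene. How many of them lie in the stretch that was read was not counted. The low number per whole transcript goes with the 3 metallothioneins at every time, and its part in their new shares was not tested.

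MT2A was the most counted of the 7 genes and rose throughout treatment. Its whole RNA stood at 116, 152, 296, 494, 723 and 1027 CPM in the cultures of 0, 2, 4, 6, 8 and 10 h, on 3905 to 41918 counts. Each culture was above the one before it by more than counting error, and the 10 h culture was 8.81-fold above 0 h (95% counting interval 8.53 to 9.11). Counting intervals here and below are exact, cover counting error only and say nothing of the spread between cultures. Over the 5 treated cultures MT2A whole RNA rose by 0.34 ± 0.02 (SE) log2 units per hour in edgeR's quasi-likelihood test, with an adjusted p of 1.42e-05.

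MT1X, the next most counted isoform, followed the same course at lower counts. Its whole RNA was 20.3, 23.6, 48.5, 82.2, 122 and 182 CPM in the same order of times. The 10 h culture was 8.94-fold above 0 h (8.27 to 9.68). The slope over treated cultures was 0.36 ± 0.02 log2 units per hour (edgeR, adjusted p = 1.42e-05). MT1X whole counts per 100 MT2A whole counts stayed between 15.5 and 17.7 over the 6 cultures, a ratio of counts and not of levels per length.

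MT1F, a sparser isoform, also rose after 2 h. Its whole RNA was 3.13, 2.88, 4.36, 5.29, 7.08 and 9.18 CPM from the 0 h to the 10 h culture, on 103 to 375 counts. The 0 h and 2 h cultures did not differ beyond counting error (ratio 0.921, interval 0.695 to 1.22). The slope was 0.20 ± 0.02 log2 units per hour (edgeR, adjusted p = 0.000322). In all, 3 of the 4 members tested rose from 2 h to 10 h in whole RNA, where 6.1% of the 21493 genes tested were called higher, and the median slope of the 4 was 0.27 against 0.0 over all genes. By p the slopes of MT1X and MT2A ranked 7th and 8th of the 21493, and by size 26th and 33rd of the 1311 rising genes.

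MTF1, the metal sensor, stayed level. Its whole RNA lay between 18.3 CPM at 4 h and 22.1 CPM at 6 h, with 20.5 at 0 h and 19.4 at 10 h. Its slope was 0.00 ± 0.01 log2 units per hour (edgeR, adjusted p = 0.936), and the treated cultures differed from 0 h by 0.00 ± 0.11 log2 units (adjusted p = 0.998). A p that misses the threshold does not show that MTF1 is unchanged, and the SE gives the size of change that could be seen. The sign of the differences of MTF1 from 0 h and of its slopes turned under several alternatives.

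The other 3 members were at the edge of detection. MT1E had 0 counts in the 0, 2, 4, 6 and 8 h cultures and 2 at 10 h. MT1G had 2 counts at 4 h, 1 at 8 h and 4 at 10 h, and 0 in the other cultures. MT1M had 1 count, at 8 h. Of these 10 counts, 6 were new. None of the 3 passed the filter on low counts in any comparison, so no fold or test is given. The limit that a count of 0 allows, taken as 3 counts and not from the exact intervals, is 0.104 CPM in the shallowest culture.

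**Figure D1:**
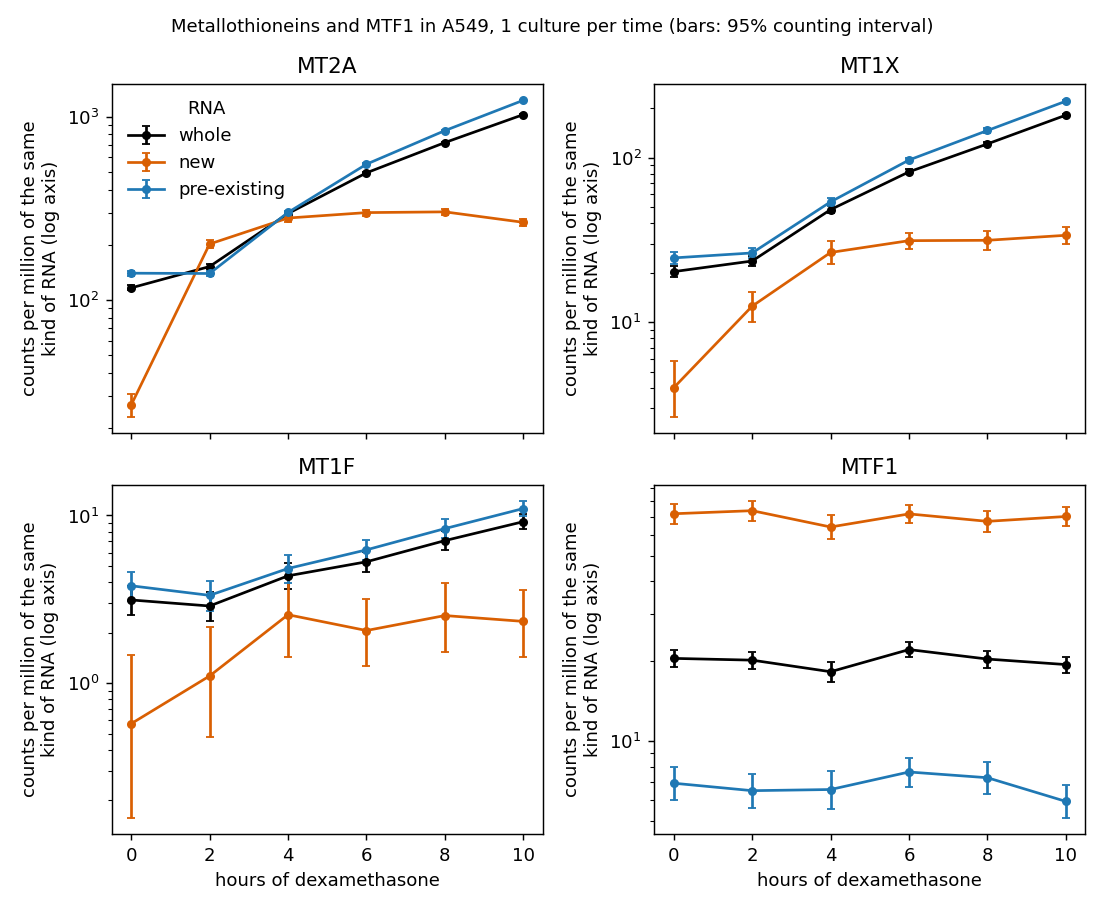
Level in CPM of MT2A, MT1X, MT1F and MTF1 (log axis) against hours of dexamethasone in A549, for whole, new and pre-existing RNA, 1 culture per point with 95% counting intervals. New RNA of MT2A goes from 26.7 to 202 CPM between the 0 h and 2 h cultures and then stays between 202 and 303, while whole RNA climbs to 1027 at 10 h; MTF1 stays level in all 3.

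New RNA of MT2A and MT1X stood above the control from the 2 h culture on. MT2A new RNA was 26.7 CPM at 0 h, on 187 counts. The treated cultures had 202, 280.1, 299.9, 303 and 265 CPM, from 2 h to 10 h in order. The 2 h culture was 7.56-fold above 0 h (6.49 to 8.85). The 6 h and 8 h cultures did not differ beyond counting error, and the 10 h culture was below 8 h (ratio 0.877, 0.827 to 0.930). Treated cultures were 3.41 ± 0.25 log2 units above 0 h (edgeR, adjusted p = 0.000103), a fold of 10.6. Here and in the other 2 comparisons with 0 h, the test takes the spread of the single control culture from the treated cultures.

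MT1X new RNA was 4.00, 12.5, 26.6, 31.4, 31.5 and 33.8 CPM over the 6 times, on 28 to 305 counts. The 2 h culture was 3.13-fold above 0 h (2.03 to 4.97) and the 4 h culture was 2.12-fold above 2 h (1.63 to 2.78). From 4 h on, neighbouring cultures did not differ beyond counting error. The treated cultures were 2.83 ± 0.57 log2 units above 0 h (edgeR, adjusted p = 0.0182). Leaving out the 6 h culture gave an adjusted p of 0.0501.

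MT1F had 4 new counts at 0 h and 8 to 20 in the treated cultures. Its difference from 0 h in new RNA was 1.92 ± 0.65 log2 units with an adjusted p of 0.138 by edgeR, and 0.0333 without the 2 h culture. MTF1 new RNA lay between 64.1 and 73.9 CPM and differed from 0 h by 0.02 ± 0.11 (edgeR, adjusted p = 0.953). So 2 of the 4 members tested, MT2A and MT1X, were called higher in new RNA, where 3.82% of the 17507 genes tested were. The median difference of the 4 was 2.38 log2 units against 0.01 over all genes.

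Within treatment, new RNA of MT1X was called rising and that of MT2A was not. The slope of MT2A new RNA from 2 h to 10 h was 0.05 ± 0.02 log2 units per hour (edgeR, adjusted p = 0.243). When the 2 h culture was left out it was -0.01 (adjusted p = 0.8). Leaving out the 10 h culture gave 0.09 (adjusted p = 0.0486). MT1X was the 1 member of 4 called rising in new RNA, at 0.14 ± 0.04 log2 units per hour (edgeR, adjusted p = 0.0312), where 3.55% of 16366 genes were. That call was lost when the 2 h culture was left out, at 0.05 (adjusted p = 0.275). It was lost too when the 8 h culture was, at 0.14 (adjusted p = 0.109).

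Pre-existing RNA rose after 2 h. MT2A pre-existing RNA was 140.1 CPM at 0 h and 139.6 at 2 h, then 300.4, 551, 839.6 and 1229 CPM in the later 4 cultures. The 2 h and 0 h cultures differed by less than counting error (ratio 0.996, 0.952 to 1.04), and the 10 h culture was 8.77-fold above 0 h. Known glucocorticoid targets were already higher in pre-existing RNA at 2 h, when label and dexamethasone covered the same hours. FKBP5 went from 45.5 CPM at 0 h to 86.0 at 2 h, TSC22D3 from 2.22 to 10.6 and PER1 from 2.11 to 8.01. DUSP1 went from 7.73 to 19.8 and KLF9 from 1.51 to 4.04, while the receptor gene NR3C1 went from 229.1 to 214.0. The cause was not tested. MT1X went from 24.7 CPM at 0 h and 26.4 at 2 h to 54.0, 97.1, 147 and 221 CPM at 4, 6, 8 and 10 h. From 2 h to 10 h, pre-existing RNA rose by 0.39 ± 0.02 log2 units per hour for MT2A (edgeR, adjusted p = 2.38e-05). The slope was 0.38 ± 0.02 for MT1X (adjusted p = 1.53e-05) and 0.21 ± 0.02 for MT1F (adjusted p = 0.000311). These 3 of the 4 members tested were called rising, where 6.12% of 19454 genes were, while MTF1 had a slope of 0.00 ± 0.02 (adjusted p = 0.948).

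The contrast of all treated cultures with 0 h did not pass the test in whole or pre-existing RNA. This test counts the rise among the treated cultures as spread, which widens the SE of genes that climb from 2 h to 10 h. A miss here thus does not show that MT2A or MT1X stayed at the 0 h level. The treated cultures were 2.24 ± 0.96 log2 units above 0 h in MT2A whole RNA (edgeR, adjusted p = 0.386) and 2.20 ± 1.02 in MT1X (adjusted p = 0.431). Leaving out the 2 h culture made the MT2A difference 2.48, with an adjusted p of 0.0485. In pre-existing RNA the differences were 2.15 ± 1.09 for MT2A (adjusted p = 0.639) and 2.17 ± 1.08 for MT1X (adjusted p = 0.634). No member was called in either comparison by edgeR. The share of genes called higher was 0.603% of 22894 in whole RNA and 0.0533% of 20624 in pre-existing RNA. An unadjusted p under 0.05 by edgeR, in either direction, was seen for 1 and 0 of the 4 members, respectively. Over all genes it was seen for 2923 of 22894 in whole RNA and 1649 of 20624 in pre-existing RNA. DESeq2 called no member there either, with 2.24 and an adjusted p of 0.303 for MT2A in whole RNA.

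New and pre-existing RNA were then compared within the same cultures. From 2 h to 10 h, MT2A new RNA fell against pre-existing RNA by 0.34 ± 0.01 log2 units per hour (edgeR, adjusted p = 8.69e-11), the smallest p of 20628 genes. MT1X fell by 0.23 ± 0.02 (adjusted p = 1.84e-05). MT1F had a difference of slopes of -0.12 ± 0.06 (adjusted p = 0.451) and MTF1 of 0.01 ± 0.02 (adjusted p = 0.973). The 2 members called lower compare with 2.19% of genes called lower. This test of the slopes was added after the data had been seen. The corresponding test of treated against 0 h called 0 of 22440 genes by edgeR (0.0%), with 1216 at an unadjusted p under 0.05, and DESeq2 called 9 higher and 10 lower. MT2A had a difference of 1.63 ± 0.76 log2 units there (edgeR, adjusted p = 0.92). With no filter on low counts it was called at nearly the same difference, 1.64 (edgeR, adjusted p = 3.01e-24). Both runs used the same cultures and differ in the genes kept, across which the test pools information on spread. The lower p is thus not taken as stronger evidence here.

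The same course is seen in the share of each gene's counts that were new, which needs no scaling between libraries. For MT2A the share was 4.79%, 27.0%, 19.2%, 13.7%, 9.13% and 5.43% in the cultures of 0, 2, 4, 6, 8 and 10 h. It was highest at 2 h and fell at every later time. Among genes with at least 100 counts in a culture, 3.7% had a lower share than MT2A at 0 h, 52.0% at 2 h and 5.68% at 10 h. For MT1X the share was 4.11%, 10.8%, 11.2%, 8.61%, 5.66% and 3.91% in that order. MT1F, on 4 to 20 new counts, ran from 3.81% at 0 h to 11.9% at 4 h and 5.33% at 10 h. MTF1 lay at the other end, with 71.3% to 75.9% of its counts new in the 6 cultures, above 96.4% to 97.9% of genes. The median gene had 25.6% to 28.7%.

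**Figure D2:**
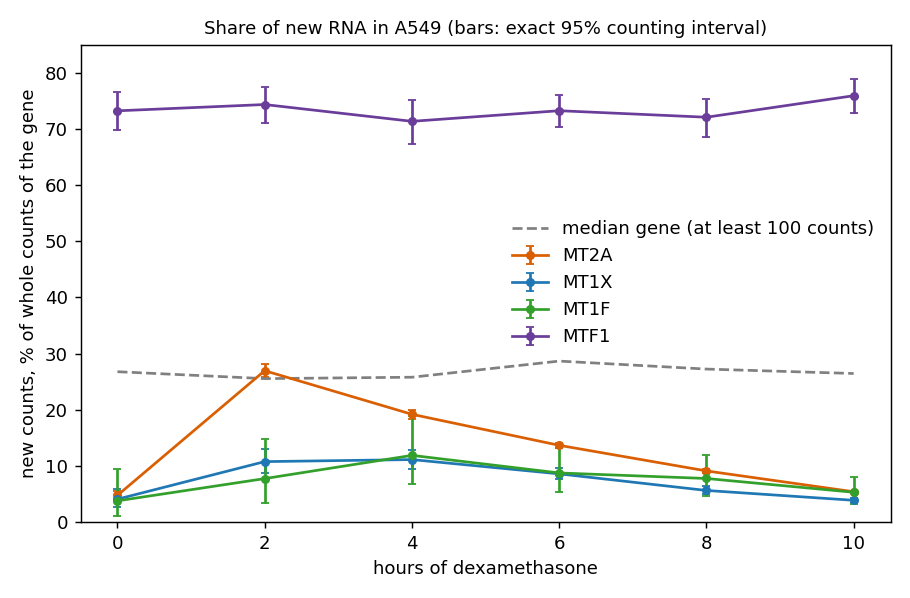
New counts as a percent of each gene's whole counts in A549 against hours of dexamethasone, 1 culture per point with exact 95% counting intervals; the dashed line is the median over genes with at least 100 counts. MT2A peaks at 27.0% at 2 h and is at 5.43% at 10 h, while MTF1 stays between 71.3% and 75.9%.

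MT1X and MT2A kept a narrow ratio in whole counts and a wider one in new counts. MT1X new counts per 100 MT2A new counts were 15.0 at 0 h (counting interval 9.69 to 22.4), 6.2 at 2 h (4.96 to 7.67), 9.5 at 4 h (8.01 to 11.2) and 12.8 at 10 h (11.2 to 14.4). The 2 h culture was lowest. All 15 metallothionein genes and pseudogenes with a row in the annotation together made up 0.0143% of all whole counts at 0 h and 0.123% at 10 h. MT2A was 81.3% to 84.2% of those counts in every culture.

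Because the label covers 2 h and successive cultures are 2 h apart, the rise of whole RNA can be set beside the new RNA of the later culture, both in CPM of whole counts. For MT2A the rise from 0 h to 2 h was 35.8 and the new RNA at 2 h was 41.1. The rise exceeded new RNA in all later intervals: 144.0 against 56.9 from 2 h to 4 h, 198 against 67.7 to 6 h, 228.5 against 66.0 to 8 h, and 304 against 55.7 to 10 h. For MT1X the rise was 3.26 against 2.55 new at 2 h and 60.3 against 7.10 at 10 h. For comparison, genes called with a rising slope in whole RNA from 2 h to 10 h were taken, metallothioneins left out. Among those of them that rose over an interval, 15.1% to 26.2% had a rise above their new RNA, depending on the interval. Of the 1311 genes with a rising slope, 67 had it in all 4 intervals after 2 h, and MT2A, MT1X, MT1F and MT1A, another isoform, were among them. These are sums from different cultures, with no test, and the number of uridines per transcript given above was lower for these genes than for the median gene. Its part in the gap was not tested.

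**Figure D3:**
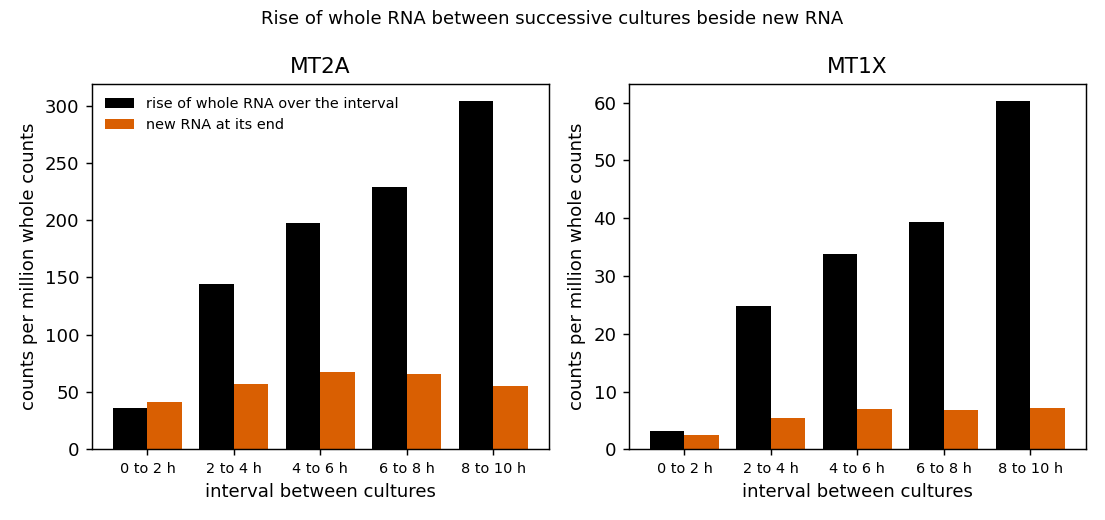
Rise of whole RNA between successive A549 cultures (black) beside new RNA in the later culture (orange), in CPM of whole counts, for MT2A and MT1X. From 0 h to 2 h both are similar for MT2A (35.8 and 41.1), and from 8 h to 10 h the rise is 304 against 55.7 new.

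Each reverse transcription well held cells of 1 culture, so wells show the technical spread within a culture and are no replicates of the treatment. Over wells with at least 5 cells, MT2A whole RNA at 0 h had a lowest, median and highest value of 30.9, 113 and 211 CPM. At 2 h these were 63.2, 148 and 299, at 6 h 145, 517 and 946, and at 10 h 611, 1033 and 1818. Every well at 10 h was above every well at 0 h and 2 h, whereas wells at 0 h and 2 h overlapped widely. Cells of all times met again in the wells of the PCR step. Within these, MT2A whole RNA was higher at 10 h than at 2 h in 190 of 190 wells, and new RNA was higher in 124 of 190. From 0 h to 2 h whole RNA was higher in 119 of 189 wells and new RNA in 179 of 189. MT1X new RNA was higher at 2 h than at 0 h in 61 of 189 wells, lower in 22 and at 0 counts on both sides in 106. MT1X whole RNA was higher at 2 h in 103 of 189 wells and higher at 10 h than at 2 h in 188 of 190. For MTF1, whole RNA was higher at 10 h than at 2 h in 93 of 190 wells.

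**Figure D4:**
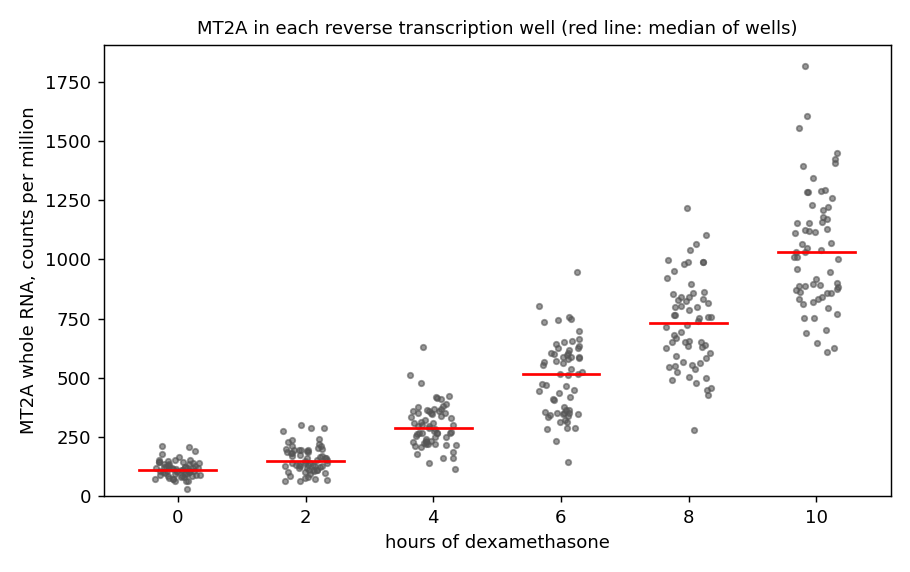
MT2A whole RNA in CPM in each reverse transcription well of at least 5 A549 cells, by hours of dexamethasone; red lines are medians over wells. The highest well at 0 h is at 211 and the lowest at 10 h is at 611.

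Nearly all cells had MT2A counts at the end of the course. Cells were thinned at random to 10000 whole counts each, which left out 19 to 48 shallower cells per culture. The mean of MT2A was then 1.08, 1.47, 2.87, 4.80, 7.19 and 10.3 counts per cell in the cultures of 0, 2, 4, 6, 8 and 10 h. Cells with at least 1 MT2A count made up 49.8%, 57.6%, 74.4%, 83.0%, 90.7% and 95.1% of the cells in these cultures, of 1103 cells in the first and 1419 in the last. Without thinning the shares were 71.2% at 0 h and 97.9% at 10 h. In the separate mixture of cell lines, human MT2A gave 1 count in 425 mouse NIH/3T3 cells (3085966 counts in all), labelled and iodoacetamide treated, and 0 in the other 3 groups of mouse cells. The human HEK293T cells mixed with them held MT2A at only 12.8 to 14.5 CPM, so this gives no background for the A549 cultures, where stray MT2A counts were not measured. At 10 h, 23.1% of thinned cells lay above the highest 0 h cell, which had 15 counts. For MT1X the share of cells with a count went from 16.3% at 0 h to 68.3% at 10 h, and for MT1F from 3.26% to 8.17%. MTF1 was seen in 15.4% to 19.1% of thinned cells at all times.

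Relative to its mean, MT2A varied less between cells as it rose. The variance beyond counting noise, divided by the squared mean, was 1.68, 1.20, 1.12, 0.999, 0.864 and 0.656 from the first to the last culture. The median gene with at least 0.5 counts per cell stood between 0.162 and 0.182, and 98.9% of these genes lay below MT2A at 0 h and 92.5% at 10 h. The top 10% of cells held 48.0% of all MT2A counts at 0 h and 29.1% at 10 h. The Fano factor, the variance over the mean, went from 2.81 at 0 h to 7.78 at 10 h. MT1X had no such steady course, with values of the excess variance between 0.949 at 10 h and 1.83 at 8 h.

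Cells high in MT2A were also high in MT1X. Pearson's r over thinned cells of 1 culture was 0.19, 0.27, 0.44, 0.46, 0.49 and 0.49 from 0 h to 10 h. These are descriptions over 1016 to 1419 cells that share a culture. They moved with the depth of thinning: r at 0 h was 0.14 at 5000 counts per cell and 0.36 at 20000. At 10 h, cells above the MT2A median had a mean of 2.96 MT1X counts and the others 1.02. For MT2A with MTF1, r lay between -0.06 and 0.03. New and pre-existing MT2A counts in the same cells had r between 0.34 at 0 h and 0.56 at 6 h. Among 8213 genes with at least 0.5 counts per cell, MT1X had the highest mean correlation with MT2A over the 6 cultures, at 0.49 (0.36 to 0.59) without thinning. It was followed by TRAM1, a translocation protein of the endoplasmic reticulum, at 0.39, SERPINE2, a secreted protease inhibitor, at 0.35, the collagen gene COL5A1 at 0.35 and CDC42EP3, an effector of the GTPase CDC42, at 0.35.

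**Figure D5:**
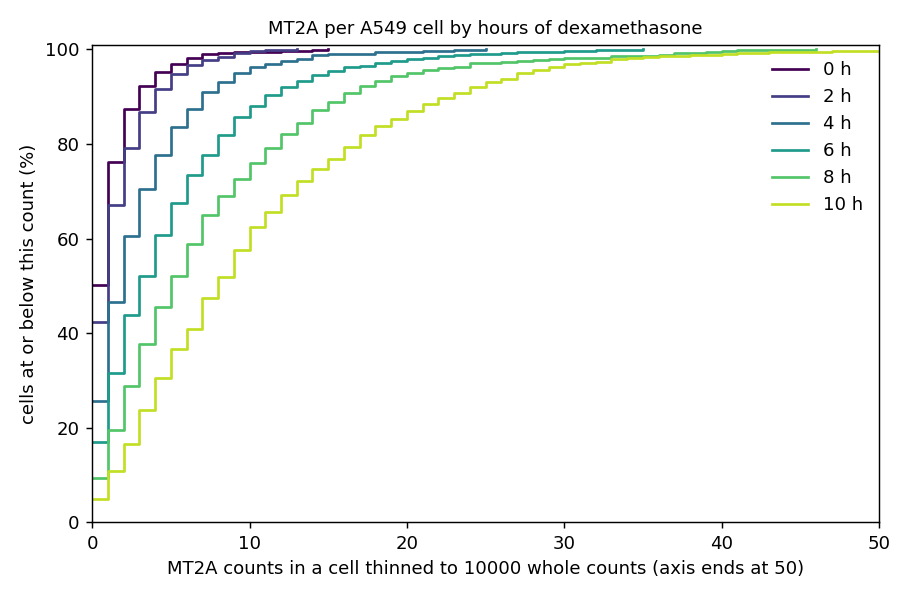
Cumulative percent of A549 cells by MT2A counts after thinning each cell to 10000 whole counts, 1 line per culture; the axis ends at 50 counts. The whole curve shifts to the right with time, and the share of cells at 0 counts shrinks as the share with a count goes from 49.8% at 0 h to 95.1% at 10 h.

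The genes most like MT2A in new RNA over time were sought among 881 genes. These were called in new RNA against 0 h with a mean of at least 10 CPM, and metallothioneins, MT1X among them, were left out. The measure was the root mean square difference of log2 fold against 0 h over 5 treated times, which share the one control culture. The closest were SDK1, a cell adhesion molecule, at 0.23, VEPH1 at 0.24, PER1, a circadian repressor and known glucocorticoid target, at 0.25, FAM43A at 0.32 and ANGPTL4, an inhibitor of lipoprotein lipase, at 0.32. In whole RNA, these 5 genes were already 1.47 (VEPH1) to 2.83 (PER1) log2 units above 0 h in the 2 h culture, where MT2A was at 0.39. In the 10 h culture they lay between 2.64 (SDK1) and 3.84 (ANGPTL4), on both sides of the 3.14 of MT2A. Like MT2A, VEPH1, ANGPTL4 and FAM43A had rising slopes in whole RNA from 2 h to 10 h, at 0.185 (edgeR, adjusted p = 0.00229), 0.14 (adjusted p = 0.00354) and 0.15 (adjusted p = 0.0259) log2 units per hour, while SDK1 (0.03) and PER1 (0.00) were not called. Between 35.2% (ANGPTL4) and 68.9% (PER1) of the counts of these 5 genes were new at 10 h, against 5.43% for MT2A.

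Most genes that act beside metallothioneins were not called. Of 11 other metallothionein genes and pseudogenes listed, 9 were matched by symbol, and only MT1A could be tested. It had 105, 133, 138, 230, 213 and 274 whole counts from 0 h to 10 h and a slope of 0.10 ± 0.02 log2 units per hour (edgeR, adjusted p = 0.00849). Of 14 zinc importers of the SLC39 family, 13 were tested for a slope in whole RNA, and 1 rose and 2 fell, with a median of -0.02 against 0.0 over all genes. SLC39A14, which carries zinc, iron and manganese, stood at 125, 142, 199.5, 229.0, 236 and 230.2 CPM from 0 h to 10 h, with a slope of 0.08 ± 0.02 log2 units per hour (edgeR, adjusted p = 0.0196). It was the only 1 of 11 importers tested that was called in new RNA against 0 h, at 0.90 ± 0.18 log2 units (adjusted p = 0.0169). SLC39A10 went from 102 to 78.2 CPM and SLC39A8 from 50.6 to 36.0 CPM between 0 h and 10 h. Their slopes fell by 0.05 ± 0.01 (adjusted p = 0.00325) and by 0.04 ± 0.01 (adjusted p = 0.0249) log2 units per hour.

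Of 9 zinc exporters and storage transporters of the SLC30 family tested for a slope, 1 rose. It was SLC30A1, the zinc exporter of the plasma membrane and itself a target of MTF1, whose level of 71.5 CPM at 0 h compares with 57.5 CPM at 2 h and 68.7 CPM at 10 h. Its slope was 0.04 ± 0.01 log2 units per hour (edgeR, adjusted p = 0.0221). It was not called against 0 h, with a difference of -0.12 ± 0.11 (adjusted p = 0.716). Among 11 copper handling genes tested, COMMD1, a regulator of copper export, rose from 2 h to 10 h by 0.04 ± 0.01 log2 units per hour (adjusted p = 0.0225). STEAP2, a reductase of iron and copper, fell by 0.06 ± 0.01 (adjusted p = 0.0266). Among 8 genes that neighbour the metallothionein cluster on chromosome 16 and could be tested, HERPUD1, a gene of protein quality control in the endoplasmic reticulum, was the 1 called, with a slope of 0.07 ± 0.02 (adjusted p = 0.0301). Over all 21493 genes tested for this slope in whole RNA, 12.6% were called in either direction and 6.53% were called lower. Of 6 glucocorticoid reference genes, listed for their known response, DUSP1, FKBP5, KLF9, PER1 and TSC22D3 were called higher in new RNA, TSC22D3 by 4.84 ± 0.28 log2 units (edgeR, adjusted p = 2.4e-05), and the receptor gene NR3C1 was not.

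The same lists gave further calls in the other comparisons, all by edgeR. Over all genes, 1191 of 19454 rose in pre-existing RNA from 2 h to 10 h and 1194 fell. In new RNA 581 of 16366 rose and 680 fell. For the slope of new against pre-existing RNA, 286 of 20628 were called higher and 451 lower. Against 0 h, 138 of 22894 were called higher in whole RNA and 11 of 20624 in pre-existing RNA. In pre-existing RNA from 2 h to 10 h, MT1A rose by 0.12 ± 0.02 log2 units per hour (adjusted p = 0.00668), SLC39A14 by 0.11 ± 0.02 and HERPUD1 by 0.10 ± 0.02. ATP7A, a copper-exporting ATPase, rose by 0.04 ± 0.01 (adjusted p = 0.0372), while SLC39A10, SLC39A8 and STEAP2 were called lower. Tested there were 13 zinc importers, 11 copper handling genes, 8 chromosome 16 neighbours and 6 reference genes. In new RNA over the same hours SLC39A10, 1 of 11 importers tested, fell by 0.06 ± 0.02 (adjusted p = 0.043). New against pre-existing RNA, SLC39A14 fell by 0.14 ± 0.01 log2 units per hour (adjusted p = 2.98e-05), as did FKBP5, KLF9 and TSC22D3 by 0.31, 0.11 and 0.18. SLC39A8 had a difference of slopes of 0.11 ± 0.02 (adjusted p = 0.00422). For this difference 12 importers and 6 reference genes were tested. In whole RNA against 0 h, DUSP1, KLF9, PER1 and TSC22D3 were called higher, and DUSP1 alone was so in pre-existing RNA. FKBP5, KLF9 and TSC22D3 were called rising from 2 h to 10 h in whole and in pre-existing RNA, and KLF9 and TSC22D3 in new RNA.

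The background of the new call was read in the mixture sample, where human HEK293T and mouse NIH/3T3 cells carried S4U for 6 h or none. In HEK293T cells with S4U and iodoacetamide, 26 of 87 MT2A counts were new (29.9%, exact interval 20.5% to 40.6%), and in cells with iodoacetamide and no S4U 2 of 129 were (1.55%, 0.188% to 5.49%). For MTF1 the shares were 80.0% and 0.332%. In the mouse cells with S4U and iodoacetamide, the share was 31.8% for Mt1, 45.5% for Mt2 and 58.6% for Mtf1, and without S4U it was 1.05%, 0.713% and 1.64%. The longer labelling time and other lines do not allow these labelled shares to be set against those of A549. The MT2A background of 1.55% in HEK293T cells with iodoacetamide and no S4U is below the 4.79% of MT2A in the 0 h A549 culture. It rests on 2 new counts, however, and its interval reaches 5.49%. In the same HEK293T cells 1.24% of all 9631814 counts were new, and 0 of 82 MT1X counts were. Without iodoacetamide, 0 of 63 MT2A counts were new in HEK293T cells with S4U and 2 of 93 in those without S4U.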

How the data were processed

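Whole and new counts per gene and cell were deposited as raw counts by the authors, with cell tables that give the treatment time, wells and a doublet score. The doublet score is the authors' deposited value and was used only to repeat the cell values on the cells with the lowest 90% of scores. The submitters' processing notes name STAR 2.5.2b, Picard 1.105, Trim Galore 0.4.1 and SAMtools 1.3, with the builds hg19 and mm10. The sources used here do not say how new reads were called. Pre-existing counts were computed as whole minus new, which was never negative.

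Counts were summed over the cells of each culture and tested with edgeR 4.0.16 (quasi-likelihood, TMM scaling, filterByExpr with a minimum count of 10, R 4.3.3), with Benjamini-Hochberg adjustment over all genes tested and a threshold of 0.05. Treated cultures against 0 h left 4 residual degrees of freedom and slopes over 5 treated cultures left 3. The test also pools information on spread across the genes kept, so its p-values do not rest on these degrees of freedom alone and can move with the filter. With 1 culture per time the p-values measure the departure of cultures from a common level or line. The tests of whole, new and pre-existing RNA share cells and are not independent. The procedure was tested on simulated data. DESeq2 1.42.0, library size scaling, no filter, cells with at least 10000 counts and leaving out each treated culture were the alternatives. Cells were thinned in Python 3.11.15. No doublet caller was run.

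All 7 members were named wherever they could be tested. The members and gene lists were chosen with earlier results of these data known. Related genes were named where called, and the 5 genes most like MT2A by each measure given. Coding sequences and uridine counts came from GENCODE v29 (GRCh38), while the files use hg19, so no coordinates are given. A planned search of promoters for motifs was not run.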

Additional observations from a re-analysis of the deposited data

How the results depend on the processing

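The rising slopes of MT2A, MT1X and MT1F in whole and pre-existing RNA, the slopes of new against pre-existing RNA of MT2A and MT1X, and MT2A in new RNA against 0 h kept direction and call under all 9 alternatives run for each. Calls changed under at least 1 alternative for MT1X and MT1F in new RNA against 0 h, for MT2A and MT1X in the slope of new RNA, and for MT2A against 0 h in whole RNA and in new against pre-existing RNA. Each time is taken as 1 culture, so a line or a common level over times stands in for replicates. Depth limits MT1F in new RNA and leaves MT1E, MT1G and MT1M untested. No paired analysis was possible because the cultures carry no replicate numbers that pair them across times; new and pre-existing RNA were compared with the culture as a term.

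Against 0 h in whole RNA, DESeq2 called 560 genes higher and 232 lower and no filter on low counts gave 302 and 149, where edgeR had 138 and 63. In pre-existing RNA these were 132 and 48 by DESeq2 and 37 and 24 without the filter, against 11 and 13. In new RNA no filter gave 614 lower, against 381. For new against pre-existing RNA, DESeq2 called 9 higher and 10 lower and no filter 128 and 55. MT2A was 1 of those called without the filter (edgeR, adjusted p = 3.01e-24), at nearly the difference it had with the filter. No filter also made 2 members rise in new RNA, MT1X and MT2A (0.05, adjusted p = 0.0169). The mean over cells of the share of MT2A that was new was 20.6%, 14.8%, 10.3% and 5.93% in the 4, 6, 8 and 10 h cultures.

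Leaving out each treated culture in turn, genes called against 0 h ranged from 57 to 931 higher and 18 to 669 lower in whole RNA, with 0 to 1 members, from 428 to 1176 and 201 to 846 in new RNA, with 1 to 3 members, and from 0 to 463 and 5 to 304 in pre-existing RNA. The highest of each came without the 2 h culture. Slopes gave 713 to 1265 rising and 701 to 1304 falling genes in whole RNA, 225 to 538 and 281 to 630 in new RNA, with 0 to 2 members, and 660 to 1130 and 594 to 1081 in pre-existing RNA. New against pre-existing RNA gave 0 to 22 higher and 0 to 14 lower against 0 h, and 102 to 252 and 239 to 438 for the slopes.

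The slope of MT2A new RNA ranged from -0.010 to 0.093, below 0 without the 2 h culture. MTF1, whose values lie near 0, changed sign. Its difference from 0 h ranged from -0.036 to 0.029 in whole RNA (0.029 without 4 h and 0.007 without 10 h), from -0.001 to 0.049 in new RNA (-0.001 without 2 h) and from -0.060 to 0.031 in pre-existing RNA (0.006 without 2 h, 0.002 without 4 h and 0.031 without 10 h). Its slope ranged from -0.005 to 0.016 in whole RNA, -0.011 to 0.015 in new RNA, -0.027 to 0.036 in pre-existing RNA and -0.039 to 0.044 for new against pre-existing RNA. With library size scaling its difference was -0.049 in new RNA and -0.014 for new against pre-existing RNA, where DESeq2 gave -0.015. The cause of these changes was not tested.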
